A study of Arabidopsis thaliana with 4 samples.

Results

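Salicylic acid is a plant hormone of defence that accumulates in leaves attacked by many pathogens and by some insects that feed on sap. It is bound by NPR1, a coactivator that enters the nucleus and acts through TGA transcription factors on defence genes, and its level is held in check by enzymes that hydroxylate it or attach glucose to it. The genes described here are 6 genes of that response: the coactivator NPR1 (AT1G64280), the defence-promoting membrane protein gene ACD6 (AT4G14400), the salicylate-responsive genes GRX480 (AT1G28480) and NUDT6 (AT2G04450), and the salicylate-modifying enzymes DMR6 (AT5G24530) and UGT74F2 (AT2G43820). They were chosen by probe set ID, with earlier results of these data known, and are 6 of 22746 probe sets on the array that are not controls. The platform annotation used here names the GRX480 probe set; the other 5 are named by the locus assigned to each probe set when the group was defined, and each of the 6 loci carries that symbol in the RefSeq annotation. No sequence was used here, so none is printed.

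Transcripts of Arabidopsis thaliana rosette leaves (accession Columbia) were measured on 4 Affymetrix ATH1 arrays, which read 1 labelled RNA each. The 2 infested arrays held RNA of plants on which 100 adult silverleaf whiteflies (Bemisia tabaci type B) had been released at a plant age of 21 days. The adult insects were removed at 7 days, and the leaves, by then carrying nymphs, were collected 28 days after infestation. The 2 uninfested arrays held RNA of leaves of matching development from plants with no whiteflies, and all plants were wild type, 7 weeks old at harvest and grown in 8 h of light and 16 h of dark. Each array held a pool of 20 plants from 2 replicate experiments, so the p-values measure the spread between pools, and their precision is limited by there being 2 arrays a group.

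The authors had scaled every array to a trimmed mean signal of 500.0, and the median signal lay between 185.2 and 205.2. Among controls for bacterial RNA absent from the samples the highest signal was 52.1, and all 6 genes lay well above that on every array. The array infested 2 stood apart, with 33 probe sets at least 8-fold above and 8 at least 8-fold below all other arrays, against 0 and 0 on each of the other 3. A sign of RNA integrity, the ratio of 3' to 5' signal of an actin control, was 5.70 and 6.56 on the infested arrays and 2.70 and 3.88 on the uninfested arrays. The same ratio of a GAPDH control was 0.975 and 1.02 on infested and 1.17 and 1.15 on uninfested arrays, and that of a ubiquitin control 2.08 and 1.87 against 2.77 and 2.34. Of the markers of other cell types, 2 of 5 guard cell genes were named here, with a summed signal of 1018 to 1194 on infested and 1995 to 2094 on uninfested arrays. Most of that sum was GC1, with 937.6 and 854.2 on infested and 1841 and 1711 on uninfested arrays. The other, FMA, had 256.1 and 163.9 on infested and 253.4 and 283.5 on uninfested arrays, with overlapping groups. Of the phloem markers 1 of 5 was named, the sucrose exporter gene SWEET11, with 4179 and 4691 on infested and 1622 and 2493 on uninfested arrays; mesophyll, root and flower markers were not analysed here. No marker read 0, and the part of the controls and markers in the results below was not tested.

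The comparison asked which transcripts differed between leaves with developing nymphs and leaves without. NUDT6, GRX480 and DMR6 rose in infested leaves, by 5.57-fold, 3.86-fold and 3.60-fold on the log2(signal + 16) scale, while NPR1, UGT74F2 and ACD6 did not pass the test, with folds of 1.25, 1.27 and 1.28. The probe sets were tested with limma on log2(signal + 16), and a change was called where the p, adjusted by Benjamini and Hochberg's method over the 13648 probe sets that passed a filter on dim values, was under 0.05; all 6 genes passed that filter. In the table as a whole, 2.83% of tested probe sets were called higher and 2.54% lower, against 3 and 0 of the 6 genes. By value 6 of 6 were higher in infested leaves, as were 53.5% of tested probe sets, and the median log2 change of the 6 genes was 1.1, against 0.04 for all tested probe sets. The genes had been picked with results known, so this contrast describes them and is no independent evidence. In leaf tissue measured in bulk, a change in the number of cells of a type and a change in RNA per cell cannot be told apart.

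**Figure D1:**
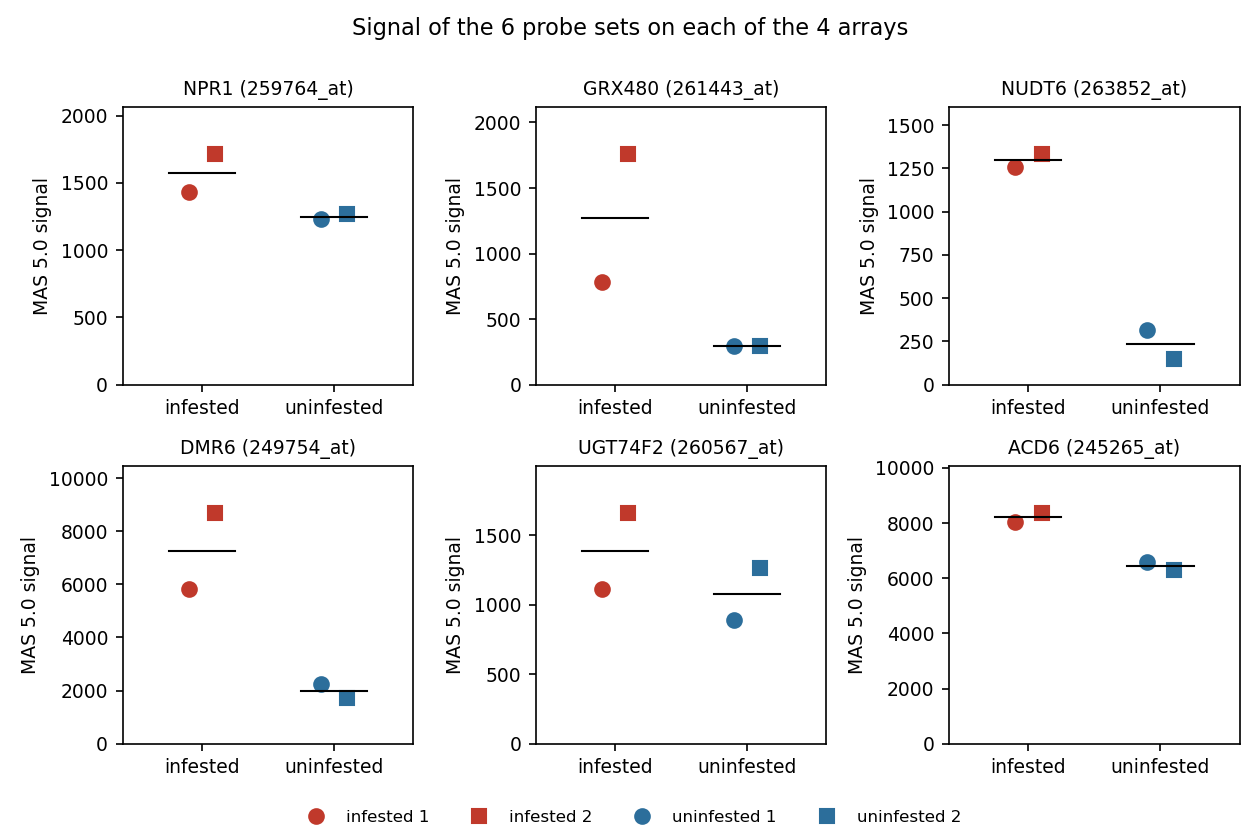
MAS 5.0 signal (vertical axes, each starting at 0) of the 6 probe sets on the 2 infested arrays (red) and the 2 uninfested arrays (blue), with circles for replicate 1, squares for replicate 2 and a black line at each group's mean. The infested points of GRX480, NUDT6 and DMR6 lie far above the uninfested ones, while those of UGT74F2 overlap them.

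NPR1, read by probe set 259764_at, is the coactivator on which most salicylate-induced gene expression depends. Its signal was 1432 and 1718 on the infested arrays, against 1230 and 1264 on the uninfested arrays. Both infested arrays were above both uninfested ones, as for 33.8% of all tested probe sets. NPR1 averaged 1575 ± 202 in infested and 1247 ± 24.2 in uninfested leaves (SD, n = 2 each), a log2 change of 0.33 ± 0.17 (SE). The limma adjusted p was 0.272, and the 95% interval of the fold ran from 0.933 to 1.69. A fold of 2 thus lay outside the interval in the fit as reported, though not under every alternative, while no change lay inside it. Of all tested probe sets, 24.3% had a change at least as high.

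ACD6 (probe set 245265_at) encodes a membrane protein with ankyrin repeats that promotes salicylate-dependent defence and cell death, and natural and mutant alleles that raise its activity slow growth. It had 8042 and 8380 on infested arrays, against 6576 and 6280 on uninfested arrays. The groups did not overlap, and the replicates of each group lay close together: their log2 difference was 0.06 between infested and 0.07 between uninfested arrays, against medians of 0.27 and 0.15 over all tested probe sets. The means were 8211 ± 238 in infested and 6428 ± 209 in uninfested leaves (SD, n = 2 each), a log2 change of 0.35 ± 0.13 (SE) with a limma adjusted p of 0.150. The 95% interval of the fold, 1.02 to 1.59, left out 1 before adjustment for the number of tests.

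GRX480 (probe set 261443_at) is a glutaredoxin of the plant-specific CC type that binds TGA factors and, when overproduced, represses the jasmonate-responsive defensin gene PDF1.2. Its signal was 783.6 and 1763 on infested arrays, against 294.2 and 292.4 on uninfested arrays. The uninfested arrays were nearly equal, and the infested arrays differed from each other by 1.15 on the log2 scale, more than for 97.2% of tested probe sets. GRX480 rose to 1273 ± 693 in infested leaves, against 293.3 ± 1.27 in uninfested leaves (SD, n = 2 each; log2 change 1.95 ± 0.38, SE; limma adjusted p = 0.0488). Its fold was 5.75 without infested 1 and 2.59 without infested 2. In these fits the gene's own spread came only from the nearly equal uninfested arrays, so the difference between the infested arrays was left out. The call was lost under 6 alternatives: without uninfested 1 (adjusted p = 0.257), without uninfested 2 (0.235), with every probe set tested (0.0955), with median scaling (0.0523), with quantile normalization (0.0516) and without a variance trend (0.0546).

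NUDT6 (probe set 263852_at) encodes a Nudix hydrolase that cleaves NADH and takes part in salicylate signalling. It had 1257 and 1336 on infested arrays, against 317.9 and 150.3 on uninfested arrays. Here the infested arrays agreed and the uninfested ones differed by 1.01 on the log2 scale, more than for 99.3% of tested probe sets. The lowest infested signal was still 3.95 times the highest uninfested one. NUDT6 averaged 1296 ± 55.9 in infested and 234.1 ± 118 in uninfested leaves (SD, n = 2 each), a log2 change of 2.48 ± 0.34 (SE; limma adjusted p = 0.0345), and was the 63rd largest rise of the 13648.

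DMR6 (probe set 249754_at) encodes a hydroxylase that converts salicylic acid to gentisic acid, and plants that lack it accumulate salicylate and resist downy mildew. DMR6 had 5821 and 8699 on infested arrays, against 2250 and 1713 on uninfested arrays. Every infested signal was at least 2.59 times every uninfested one. DMR6 averaged 7260 ± 2035 in infested and 1982 ± 380 in uninfested leaves (SD, n = 2 each), a log2 change of 1.85 ± 0.25 (SE; limma adjusted p = 0.0342).

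UGT74F2 (probe set 260567_at) encodes a glucosyltransferase that forms the glucose ester of salicylic acid. It had 1113 and 1662 on infested arrays, against 893.0 and 1267 on uninfested arrays. The groups overlapped, since uninfested 2 was above infested 1, and each replicate 2 was above its replicate 1. UGT74F2 averaged 1387 ± 388 in infested and 1080 ± 264 in uninfested leaves (SD, n = 2 each), a log2 change of 0.35 ± 0.27 (SE; limma adjusted p = 0.443) with a 95% interval of the fold from 0.797 to 2.04. The interval thus covers both no change and a doubling of the signal. Whether the change of UGT74F2 differed from that of GRX480, with an interval of 2.02 to 7.37, was not tested. UGT74F1, the neighbour of UGT74F2 on the chromosome, encodes a closely related salicylate glucosyltransferase. UGT74F1 had 8.6 and 10.7 on infested and 5.8 and 10.4 on uninfested arrays, below the bacterial controls on all 4 and too dim to test.

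**Figure D2:**
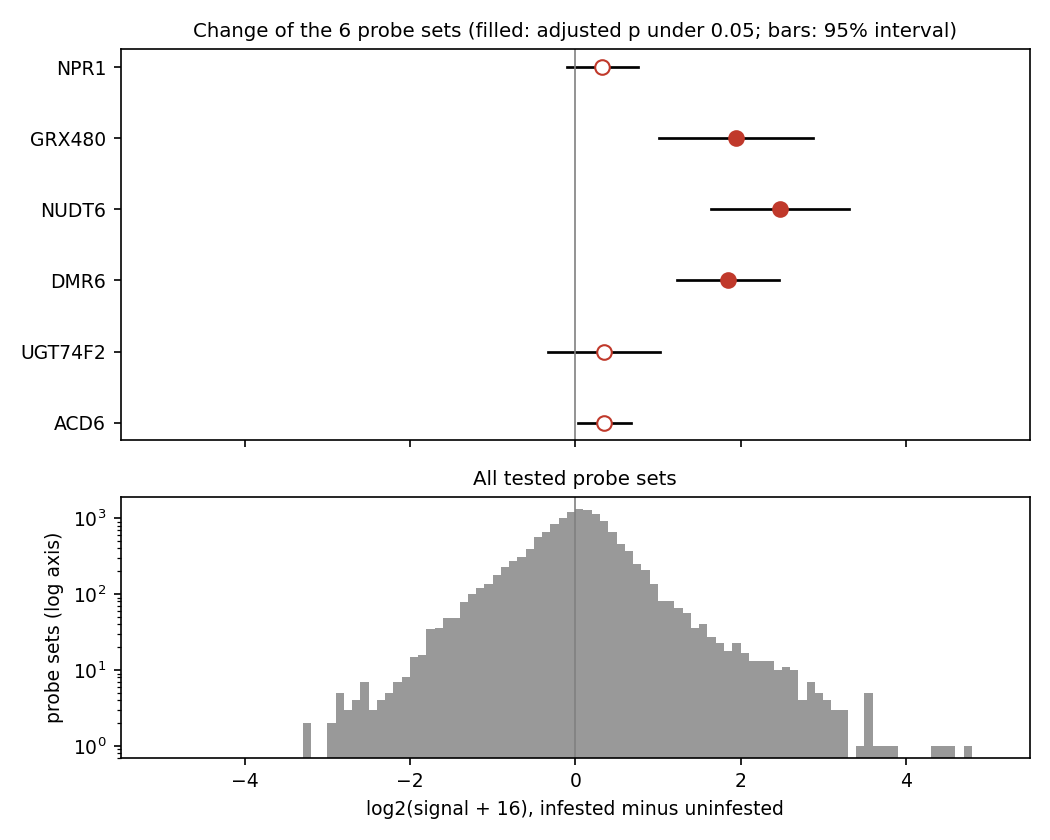
Upper panel: log2 change, infested minus uninfested, of the 6 genes on the log2(signal + 16) scale, with limma's 95% interval as a bar and a filled point where the adjusted p was under 0.05. Lower panel: the same change for all 13648 tested probe sets, counted on a log axis; GRX480, NUDT6 and DMR6 lie in its sparse upper tail and NPR1, UGT74F2 and ACD6 near its centre.

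Among the tested probe sets, 0.462% had a change at least as high as NUDT6, 1.03% as GRX480 and 1.19% as DMR6, against 22.5% as ACD6, 22.7% as UGT74F2 and 24.3% as NPR1. Each infested signal was at least 2 times each uninfested one for 3 of the 6 genes, NUDT6, GRX480 and DMR6, as for 2.16% of tested probe sets. Groups that did not overlap, with infested higher, were found for 5 of the 6 genes, UGT74F2 being the exception, as for 33.8% of tested probe sets.

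The titles number the arrays within each group, and the series text describes pools of infested and of control plants from shared experiments. The labels do not state that arrays of 1 number share an experiment; this was assumed for the pair changes and the replicate block. In the first pair the log2 change, infested minus uninfested, was 1.37 for GRX480, 1.93 for NUDT6 and 1.36 for DMR6. In the second pair it was 2.53 for GRX480, 3.02 for NUDT6 and 2.33 for DMR6. GRX480, NUDT6 and DMR6 were thus higher in both pairs, and more so in the second. For NPR1 the changes were 0.22 and 0.44, for UGT74F2 0.31 and 0.39, and for ACD6 0.29 and 0.42. The change was larger in the second pair for 6 of 6 genes, as for 40.2% of all tested probe sets and for 80.6% of those called higher. Infested 2, which stood apart on other probe sets, held the highest of the 4 signals for 6 of 6 genes, as for 32.4% of tested probe sets. Without infested 2 the log2 changes of all 6 genes stayed above 0. They were 1.37 for GRX480, 2.43 for NUDT6, 1.56 for DMR6, 0.20 for NPR1, 0.32 for ACD6 and 0.06 for UGT74F2.

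**Figure D3:**
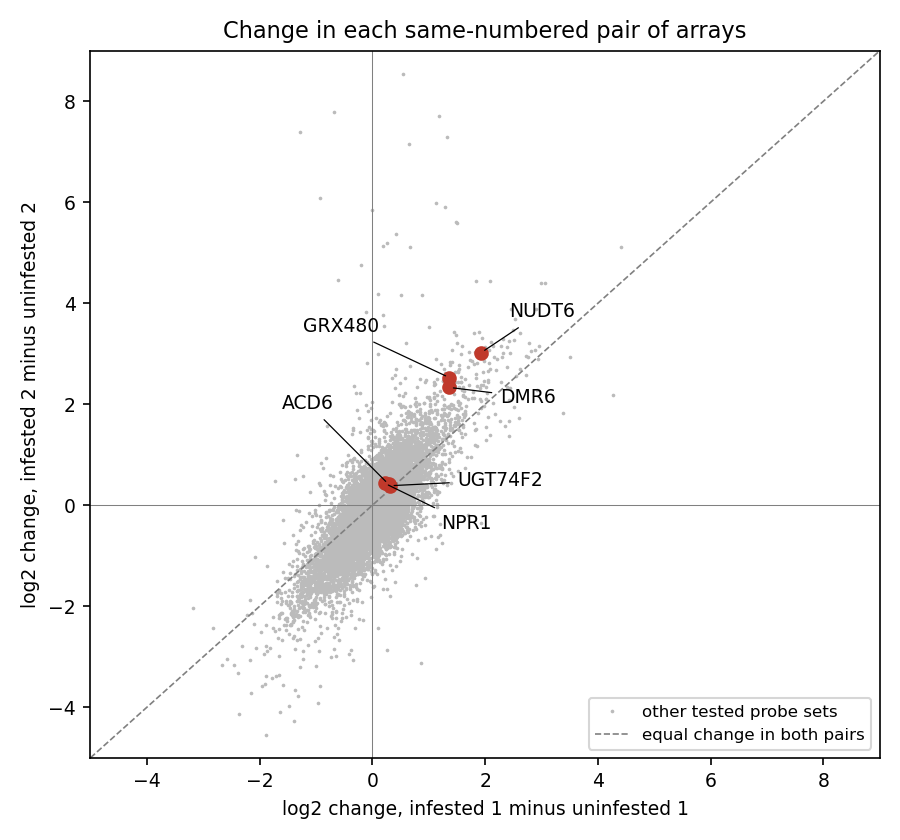
Log2 change on the log2(signal + 16) scale in the pair infested 1 and uninfested 1 (horizontal axis) and in the pair infested 2 and uninfested 2 (vertical axis) for all tested probe sets (grey) and the 6 genes (red, labelled). The dashed line marks equal change in both pairs; all 6 genes lie above it.

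The number of calls differed with the array left out. Without uninfested 1, without uninfested 2 or with every probe set tested regardless of brightness, limma called 0 of the 6 genes and 0 probe sets in the whole table; at an unadjusted p under 0.05 it found 3 of the 6 genes, all higher, in each case. At that threshold it found 854 higher and 786 lower of the 13648 probe sets without uninfested 1, 1005 and 922 without uninfested 2, and 2453 and 2203 of 22746 with every probe set tested. NUDT6 was 7.89-fold higher without uninfested 1 (adjusted p = 0.0907) and 3.93-fold without uninfested 2 (0.150). DMR6 was 4.13-fold (0.148) and 3.15-fold (0.207) higher in the same fits, and GRX480 3.87-fold (0.257) and 3.85-fold (0.235). With an array left out, the spread in these fits comes from the group that still has 2. With the arrays as numbered pairs, entered as a replicate block, limma called the same 3 of the 6 genes, as it then called 9.19% of all tested probe sets higher and 10.3% lower.

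**Figure D4:**
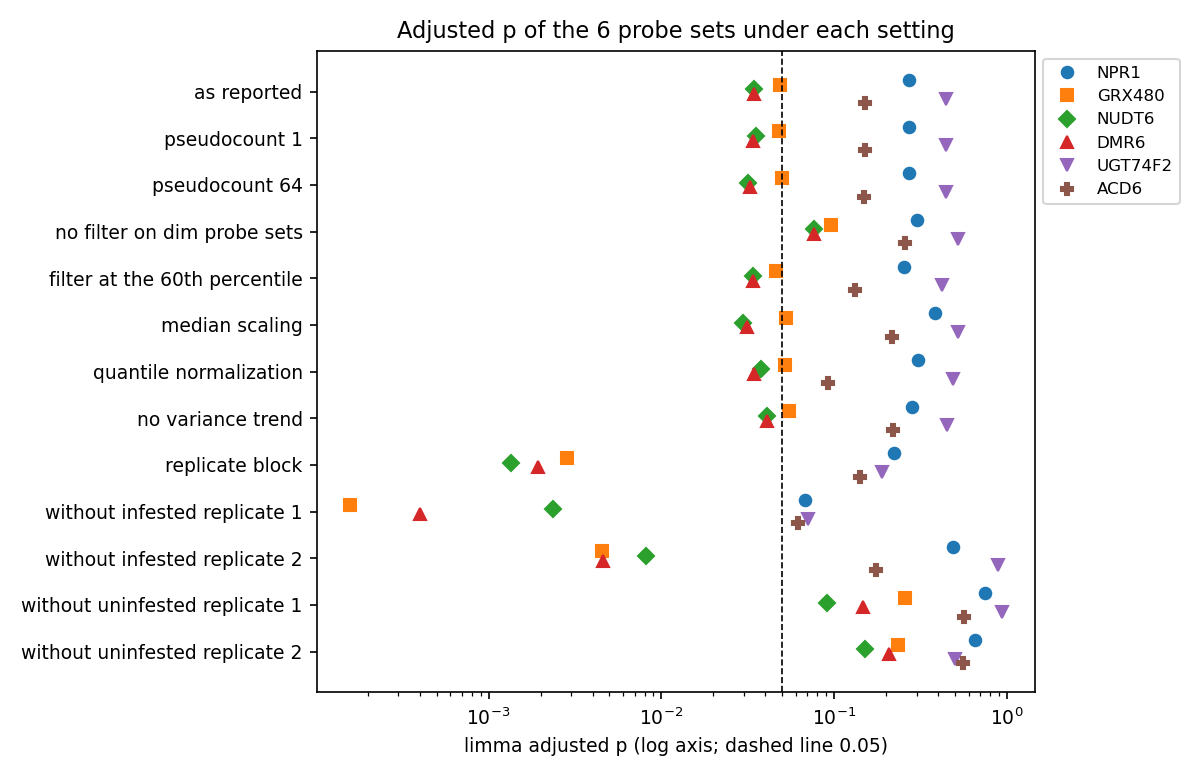
Limma's adjusted p (horizontal log axis, dashed line at 0.05) of each of the 6 genes as reported and under 12 other settings (rows). NUDT6 and DMR6 lie left of the line in 9 of the 12 and GRX480 in 6 of the 12, while NPR1, UGT74F2 and ACD6 lie right of it in all.

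The 6 genes were also compared with each other over the 4 arrays. Likeness was measured as the Euclidean distance between log2(signal + 16) values, each gene centred on its mean over the 4 arrays. The values were not scaled, so a distance reflects the size of a change as well as its shape over the arrays. By this measure NPR1 and ACD6 were the nearest of the 15 pairs of genes, with a distance of 0.162. NPR1 and UGT74F2 followed with 0.392, and GRX480 and DMR6 with 0.498. NUDT6 stood farther from DMR6 (0.839) and GRX480 (1.16), and the pair farthest apart was NUDT6 and UGT74F2 (2.40).

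The genes with the nearest patterns among 7365 other named probe sets, or 7364 for GRX480, were chosen for likeness, so their own changes are no separate result. Nearest to NPR1 were AT5G44320 (distance 0.0108), AT2G04900 (0.0143) and ZAP1 (0.0163), a WRKY transcription factor gene with 625.3 and 742.6 on infested and 531.7 and 552.2 on uninfested arrays. Nearest to ACD6 were ALDH6B2 (0.0132), an aldehyde dehydrogenase gene, Cpn60beta3 (0.0228), a chloroplast chaperonin gene, and AT2G43530 (0.0292). Nearest to UGT74F2 were AT5G03490 (0.0419), AT3G17800 (0.0518) and UBC28 (0.0736), a ubiquitin-conjugating enzyme gene.

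GRX480 was followed most nearly by AT1G65500 (0.0814), with 797.6 and 1793 on infested and 306.4 and 281.0 on uninfested arrays. AT1G26410 (0.0894), a berberine bridge enzyme-like oxidase gene, and AT3G01830 (0.128), a calmodulin-like gene, came next, and both were also higher on infested 2 than on infested 1. Nearest to DMR6 were AT3G51440 (0.129), AT4G23885 (0.142) and AT4G01870 (0.201). Nearest to NUDT6 were CHX16 (0.396), a cation/H+ exchanger gene, AT1G03660 (0.463) and AT3G51330 (0.537). CHX16 had 268.7 and 304.0 on infested and 84.2 and 18.6 on uninfested arrays, with its lowest value on uninfested 2, as NUDT6 had. On that array CHX16 and AT1G03660, the second with 42.9, read below the highest bacterial control (48.8), so their distances depend on signals not above background.

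Other genes of the pathway came from 7 lists of 83 loci, of which 21 had a probe set named here and 16 were tested; the rest were not analysed by name. Of the 16, limma called 4 higher and 0 lower, against 2.83% and 2.54% of all tested probe sets, and the median log2 change was 0.46, against 0.04. Among those 4, UGT76B1 and GRXC10 passed the filter, set on the mean over all arrays, only through their infested signals. The count of genes called higher thus depends in part on the filter, and it describes the list only. With the replicate block 6 were higher and 1 lower, against 9.19% and 10.3% of all tested probe sets in that fit. The single tested gene among 21 NPR1 relatives and partners was NPR2, the nearest paralog of NPR1. NPR2 had 135.7 and 175.9 on infested and 86.9 and 138.3 on uninfested arrays, with overlapping groups (log2 change 0.44, limma adjusted p = 0.353). AT4G14390, which lies next to ACD6 and encodes a related ankyrin-repeat protein, had 338.6 and 340.0 on infested and 203.5 and 240.7 on uninfested arrays (log2 change 0.58, limma adjusted p = 0.108). The groups of AT4G14390 did not overlap, and it was the single tested gene of 3 in its list.

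Of 12 listed genes that modify salicylate, UGT76B1 was tested. Its enzyme attaches glucose to salicylic acid and to other defence signals. It rose in infested leaves, to 567.6 and 343.8, against 70.2 and 31.0 in uninfested leaves (limma adjusted p = 0.0333). On uninfested 2 it read below the highest bacterial control, so its fold depends on the value added before taking logs. UGT76B1 passed the filter on dim values only through its infested signals. BSMT1, which makes methyl salicylate, was too dim to test, with 258.9 and 134.0 on infested and 22.0 and 65.9 on uninfested arrays; with every probe set tested its limma adjusted p was 0.143. SAG101, a partner of EDS1 in resistance signalling and the single tested gene of 10 for salicylate synthesis and its regulators, rose to 408.4 and 436.2 in infested leaves, against 191.0 and 195.3 in uninfested leaves (limma adjusted p = 0.0378). Of the lists of 10 salicylate-induced defence genes and of 8 Nudix hydrolases 0 were named here.

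The best covered list was that of the CC-type glutaredoxins related to GRX480, of which 12 of 19 were tested, 3 were too dim and 4 were not analysed by name. Of the 12, 2 rose and 0 fell, where 2.83% and 2.54% of all tested probe sets did. With the replicate block 4 rose and 1 fell, where 9.19% and 10.3% did. The median log2 change of the 12 was 0.22, against 0.04 for all tested probe sets. GRXS4 rose to 914.8 and 1202 in infested leaves, against 209.0 and 344.6 in uninfested leaves, a log2 change of 1.90 with a limma adjusted p of 0.0371. GRXC10, named after its values were seen, rose to 183.4 and 218.5 in infested leaves, against 77.3 and 89.7 in uninfested leaves (1.12, limma adjusted p = 0.0467). Both GRXS4 and GRXC10 had groups that did not overlap. GRXC10 passed the filter on dim values only through its infested signals, so the count of 2 that rose depends in part on the filter. Of the other glutaredoxins with the highest mean signal, GRXS2 had 3793 and 4236 on infested and 4893 and 5452 on uninfested arrays, a log2 change of -0.36 (limma adjusted p = 0.188). GRXC13 had 453.2 and 420.6 on infested and 615.4 and 890.6 on uninfested arrays (-0.74, limma adjusted p = 0.107, or 0.0410 with the replicate block). GRXS8 had 376.1 and 845.1 on infested and 327.2 and 486.8 on uninfested arrays, with overlapping groups (0.48, limma adjusted p = 0.476).

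GRXS8, GRXS4, GRXS5 and GRXS3 lie in a run of neighbouring genes of the CC type. Their sequences were not compared here, and their probes may read more than 1 of these genes. GRXS5 and GRXS3, named after their values were seen, had log2 changes of 1.18 and 1.11. Neither passed in the fit as reported (limma adjusted p = 0.0681 and 0.0691), and both passed with the replicate block (limma adjusted p = 0.00578 and 0.00741). GRXS3 had 335.3 and 500.2 on infested and 153.8 and 212.1 on uninfested arrays. GRXS5 had 386.5 and 619.1 on infested and 179.8 and 239.4 on uninfested arrays. Neither had overlapping groups.

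**Figure D5:**
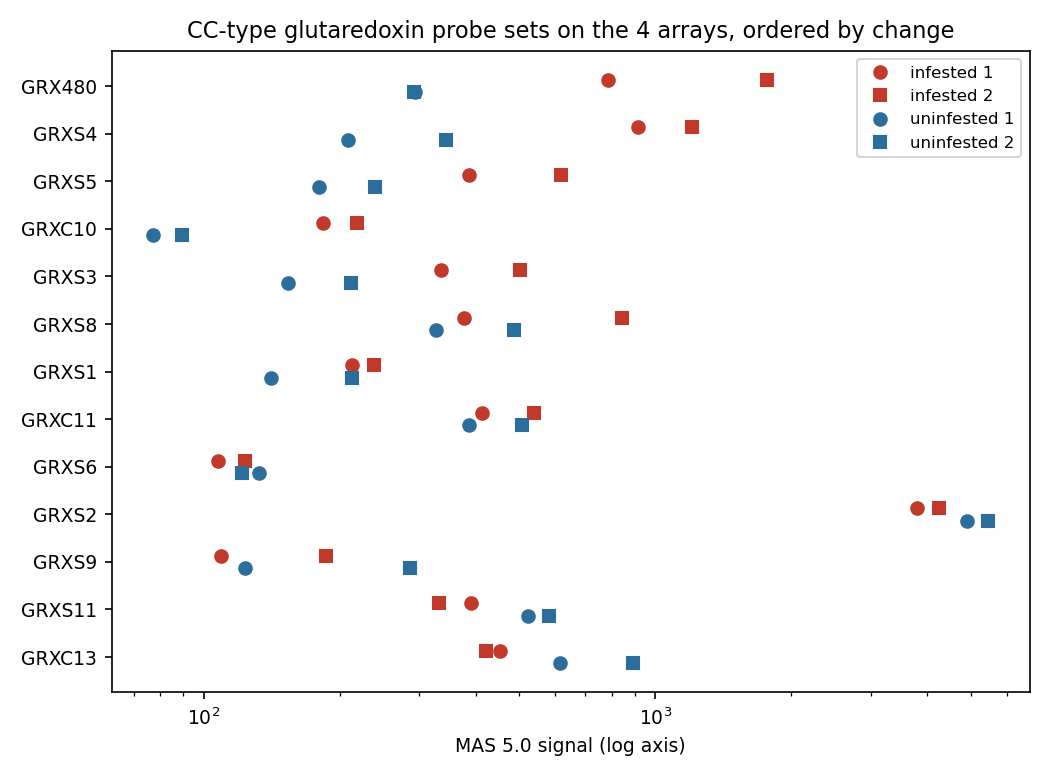
MAS 5.0 signal (horizontal log axis) of GRX480 and the 12 tested CC-type glutaredoxins of the list on the 2 infested arrays (red) and 2 uninfested arrays (blue), ordered from the highest log2 change at the top to the lowest at the bottom. GRX480 and GRXS4 have the widest gaps with infested higher, and the order is turned for GRXC13, GRXS11 and GRXS2.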

How the data were processed

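Leaf RNA was read on 4 one-colour ATH1 arrays, 2 infested and 2 uninfested, grouped by the sample titles. The authors deposited 1 intensity per probe set and array, the linear MAS 5.0 signal computed with default settings, per the series text; a software version is not given in the sources used here. After trimming 2% of the probe sets from either end, the mean signal was 500.0 on every array. The authors' removal of genes called absent was not applied here.

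From the 22810 probe sets, 64 controls were left out. Values were taken as log2(signal + 16), which understates changes of dim genes, and those with a mean under the 40th percentile were dropped, leaving 13648. The test was limma's (version 3.58.1, R 4.3.3), with a variance trend and 2 residual and 3.66 prior degrees of freedom, with Benjamini-Hochberg adjustment over all 13648. An exact permutation test of 2 arrays against 2 cannot give a two-sided p below 0.333, so none is given. Probe sets of the lists were named through the platform annotation and RefSeq (TAIR10.1): 13513 had 1 gene, 503 several and 8730 are unnamed here.

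The members and lists were chosen with earlier results of these data known. Genes named in the text are the 6 members, the 3 nearest patterns of each, and of each list all tested genes where 6 or fewer were tested, or else the 4 brightest; other names are said to be chosen later. Same-numbered arrays were assumed to be pools of the same experiments, which the series text describes without tying them to the numbers; across probe sets their deviations from the group means had a correlation of 0.264. The alternatives were 2 other pseudocounts, 2 filters, 2 normalizations, no variance trend, a replicate block and each array left out.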

Additional observations from a re-analysis of the deposited data

How the results depend on the processing

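The direction of change was higher in infested leaves for all 6 genes under all 12 alternatives. NPR1, ACD6 and UGT74F2 were called under none of the 12 (adjusted p from 0.0617 to 0.941), NUDT6 and DMR6 under 9 and GRX480 under 6. With every probe set tested, 0 of the 6 genes, 0 of the listed genes, and 0 higher and 0 lower probe sets in all were called by limma, against 2453 and 2203 at an unadjusted p under 0.05. Fits that leave out an array called between 0 and 3 of the 6 genes, between 0 and 6 listed genes higher and between 0 and 2 lower, and over the whole table between 0 and 2087 higher and between 0 and 2553 lower. Over the whole table, limma called 0 without uninfested 1 (854 and 786 at an unadjusted p under 0.05) and without uninfested 2 (1005 and 922) and most without infested 1; without infested 2 it called 653 higher and 739 lower, 2 of the listed genes and the same 3 of the 6 genes. With the replicate block 1254 were higher and 1403 lower, against 386 and 347 without it, and 1 listed gene was lower; the block changed no call among the 6 genes. A filter at the 60th percentile left 1 listed gene called higher, against 4, since fewer genes were tested. Median scaling gave 342 higher and 589 lower, or 36.7% higher against 52.7%, and no variance trend gave 277 and 199. The cause of these shifts was not tested.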
